A study of Mus musculus with 16 samples.

Results

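Apln, Aplnr, Esm1, Cxcr4 and Adm are 5 genes known as markers of sprouting tip cells, and were chosen for that role from the 52636 genes of a mouse endothelial gene count table. All 5 passed the filter on low counts, which 19646 genes passed. The libraries came from animals with the genotype Erg and Fli1 double knockout and from animals labelled Wild Type, in liver, lung and heart, 10 days after tamoxifen. Liver and lung had 3 knockout-labelled and 3 control libraries each, and heart had 2 of each. Tamoxifen is listed for every group, controls included. The Cre driver, the age of the animals and any pooling of animals are not stated in the labels. The cells were sorted as live, negative for the leukocyte marker CD45 and positive for the endothelial proteins CD31 and VE-cadherin, the last stained by an antibody given to the living animal. Nothing in the labels says that each library came from a separate animal, so p-values measure the spread between libraries, some of which may be technical.

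Tip cells lead a new vessel sprout, extend filopodia and are followed by stalk cells, with VEGF and Notch signals setting which cell leads. Apelin, encoded by Apln, is a secreted peptide made by tip cells, and its receptor APJ, encoded by Aplnr, is a G protein-coupled receptor found on neighbouring endothelial cells and on veins. Adrenomedullin, encoded by Adm, is a secreted peptide that keeps vessels and lymphatics intact. ESM1, or endocan, is a secreted proteoglycan, and CXCR4 is the receptor for the chemokine CXCL12. Quiescent adult endothelium is known for low tip cell activity, although lung and heart capillaries also express several of these genes.

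In the GENCODE M21 annotation of GRCm38, Apln lies on chromosome X (48025146 to 48034853, minus strand) and Aplnr on chromosome 2 (85136225 to 85139923, plus strand). Esm1 lies on chromosome 13 (113209659 to 113218098, plus strand), Cxcr4 on chromosome 1 (128588199 to 128592293, minus strand) and Adm on chromosome 7 (110627661 to 110629820, plus strand). Gzmk overlaps Esm1 and the antisense gene Gm28863 overlaps Adm on the opposite strand, with 0 exon bases shared in either pair. RefSeq promoters on GRCm38.p6 were matched for 4 of the 5 genes, all but Aplnr. The 250 bases before the starts of the peptide genes Apln and Adm are shown because Apln held the only match found among the 4, and Adm was higher in the knockout-labelled libraries of every tissue. They are chrX:48034854-48035103 (minus strand) for Apln and chr7:110627407-110627656 (plus strand) for Adm, each printed 5′ to 3′ on the gene's own strand. Capitals mark the match.
Apln: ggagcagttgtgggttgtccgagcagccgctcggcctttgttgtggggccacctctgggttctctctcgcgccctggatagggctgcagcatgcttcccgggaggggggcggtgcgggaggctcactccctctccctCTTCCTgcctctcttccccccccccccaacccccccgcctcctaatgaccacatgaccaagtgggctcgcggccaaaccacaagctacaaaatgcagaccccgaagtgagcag
Adm: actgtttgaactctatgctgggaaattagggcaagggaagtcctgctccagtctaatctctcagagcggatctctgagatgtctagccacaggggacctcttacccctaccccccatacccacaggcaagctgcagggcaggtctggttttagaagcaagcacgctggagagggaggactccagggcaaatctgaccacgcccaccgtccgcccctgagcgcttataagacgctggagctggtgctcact
Both strands were searched for the letters ACGTG, a form of the core of the hypoxia response element. Both were also searched for AGGAAG and CGGAAG, forms of the motif of the ETS family to which ERG and FLI1 belong. Other forms, such as GCGTG or GGAA beside other letters, were not searched. A promoter without a match may still hold those. The ETS forms searched differ only in their first letter, so both cannot stand at the same place. The only match to the letters searched was AGGAAG on the opposite strand of Apln, where the printed strand reads CTTCCT. Its first base lies 113 bases upstream of the start. Of 32851 promoters of the same length, 16.6% held ACGTG, 29.5% held AGGAAG, 13.6% held CGGAAG and 39.2% held either of these ETS forms. A match is a description of letters and not a binding site.

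Total counts ran from 30226340 to 41449054 per library, and levels below are CPM scaled by TMM. Erg in liver was lower (165, 136 and 131 CPM in knockout-labelled libraries, against 361, 337 and 371 CPM in controls). It was also lower without overlap in lung (164 to 224 CPM, against 259 to 276 CPM in controls) and heart (155 to 158 CPM, against 204 to 229 CPM). Whole-gene counts of Fli1 fell in no tissue, and in lung they were higher (98.2 to 138 CPM, against 76.6 to 77.9 CPM in controls). The groups are therefore called knockout-labelled throughout. Reads outside the deleted part count towards both genes. The 12 pan-endothelial markers all had counts, and their sum was lower in knockout-labelled libraries of each tissue, with no overlap. It was 13480 to 19870 CPM in knockout-labelled liver against 21490 to 23890 CPM in liver controls, 12960 to 16460 CPM in knockout-labelled lung against 20550 to 20890 CPM in lung controls, and 10850 to 12730 CPM in knockout-labelled heart against 18210 to 18980 CPM in heart controls. Each liver and lung group and the heart knockout-labelled group held 1 male library, and both heart controls were female. Markers of other cells differed by genotype too: the lung epithelial list summed to 303 to 525 CPM in lung knockout-labelled libraries against 1929 to 3144 CPM in lung controls, and to 101 to 157 CPM in heart knockout-labelled libraries against 5.08 to 5.96 CPM in heart controls. Their part in the results below was not tested. In bulk libraries, fewer cells of a type and less RNA per cell cannot be told apart.

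In wild type endothelium the 5 genes were distributed differently over the organs. Per kilobase of exon, lung controls had 64.6 ± 4.79 CPM of Aplnr, 32.3 ± 3.20 of Esm1, 30.6 ± 7.07 of Apln, 13 ± 3.72 of Cxcr4 and 4.46 ± 1.68 of Adm (SD, n = 3). Heart controls had 80.0 ± 3.43 CPM per kilobase of Aplnr, 20.4 ± 0.513 of Adm, 18.6 ± 4.25 of Cxcr4, 18.1 ± 7.40 of Apln and 9.06 ± 1.87 of Esm1 (SD, n = 2). Liver controls had 75.8 ± 28.2 CPM per kilobase of Esm1, 31.6 ± 4.23 of Adm, 3.55 ± 0.812 of Cxcr4, 1.70 ± 1.08 of Apln and 0.521 ± 0.279 of Aplnr (SD, n = 3). The apelin receptor was thus the highest of the 5 in lung and heart and the lowest in liver.

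Among all genes, 47% differed between control lung and control liver, 47.6% between control heart and control liver, and 29.5% between control heart and control lung (edgeR quasi-likelihood test, Benjamini-Hochberg adjusted). Aplnr was higher in control lung than in control liver (log2 6.93, SE 0.586, adjusted p = 4.64e-07) and in control heart than in control liver (log2 7.24, SE 0.606, adjusted p = 6.69e-07). Apln was higher in lung (log2 4.16, adjusted p = 0.00133) and heart (log2 3.40, adjusted p = 0.00608) than in liver. Cxcr4 was also higher in lung (log2 1.87, adjusted p = 0.00137) and heart (log2 2.39, adjusted p = 0.000427) than in liver. Adm ran the other way: it was lower in lung than in liver (log2 −2.82, adjusted p = 2.96e-07) and in heart than in liver (log2 −0.63, adjusted p = 0.0425), and higher in heart than in lung (log2 2.19, adjusted p = 1.31e-05). The heart against liver call of Adm ended with upper quartile factors (log2 −0.51, adjusted p = 0.0964), with a block by title numbers (log2 −0.58, adjusted p = 0.0704) and without liver control 2 or 3 or heart control 1 or 2 (log2 −0.66 to −0.51, adjusted p = 0.0739 to 0.178). Esm1 was lower in heart than in liver (log2 −3.07, adjusted p = 0.00376), and lung against liver did not pass (log2 −1.23, adjusted p = 0.101). With libraries paired across tissues by genotype and number, Esm1 passed for lung against liver (log2 −1.15, adjusted p = 0.0391) and for heart against lung (log2 −2.05, adjusted p = 0.0126; unpaired log2 −1.84, adjusted p = 0.0623).

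**Figure D1:**
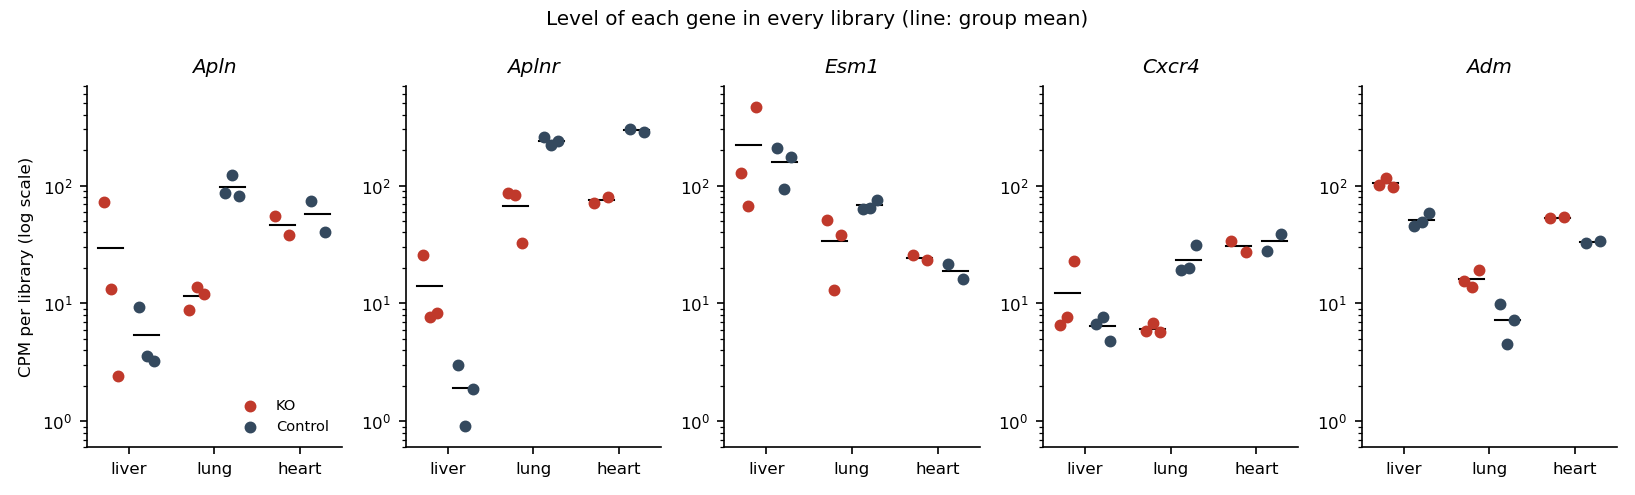
Level of each gene in every library, in CPM on a log axis, with knockout-labelled libraries (red) left of controls (dark blue) in each tissue and a line at the group mean. Lung libraries of all 5 genes fall into 2 groups that do not overlap, while in liver Apln spans 2.43 to 72.2 CPM in the knockout-labelled libraries alone.

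Set against controls of the same tissue, 2 of the 5 genes passed the knockout test in liver, both higher (Aplnr and Adm), where 19.4% of all genes passed, 9.54% higher and 9.87% lower. In lung 4 of 5 passed, with Apln, Aplnr and Cxcr4 lower and Adm higher, against 8.46% of all genes, 4.35% higher and 4.11% lower. In heart 1 of 5 passed (Aplnr, lower), against 19.3% of all genes, 10.2% higher and 9.09% lower. All 5 genes had knockout-labelled and control libraries that did not overlap in lung, as 29.4% of all genes did. In liver this held for Aplnr and Adm (37% of all genes), and in heart for Aplnr, Esm1 and Adm (59% of all genes).

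Apln, the gene of the apelin peptide, was lower in knockout-labelled lung and scattered widely in knockout-labelled liver. Lung had 8.78, 13.7 and 12 CPM in the knockout-labelled libraries and 86.5, 122 and 80.8 CPM in the controls. Every knockout-labelled library lay below every control, and Apln fell (log2 −3.07, SE 0.822, edgeR adjusted p = 0.0336). The call ended when any single lung library was left out (log2 −3.22 to −2.86, adjusted p = 0.0647 to 0.103), and held when lung was fitted alone (adjusted p = 0.0006). Liver had 72.2, 13.1 and 2.43 CPM in the knockout-labelled libraries and 9.25, 3.58 and 3.22 CPM in the controls. The first 2 knockout-labelled libraries lay above all controls and the third lay below them, and the difference did not pass (log2 2.44, 95% interval 0.69 to 4.20, adjusted p = 0.0509). Without knockout-labelled liver library 1 it was 0.54 (adjusted p = 0.584), and it passed without knockout-labelled library 2 (2.79, adjusted p = 0.0373) or 3 (2.98, adjusted p = 0.00313) or control 1 (3.11, adjusted p = 0.0489). It also passed by DESeq2 (2.43, adjusted p = 0.0214). Heart had 55.2 and 38.0 CPM in the knockout-labelled libraries and 73.4 and 40.4 CPM in the controls, which overlapped (log2 −0.29, 95% interval −2.28 to 1.70, adjusted p = 0.875).

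The knockout change of Apln in lung was lower than that in liver by 5.51 on the log2 scale (SE 1.16, edgeR adjusted p = 0.012), in a comparison in which 6.2% of all genes passed. Without the male libraries this call ended (−5.48, adjusted p = 0.144). Heart against liver (−2.73, adjusted p = 0.198, 8.32% of all genes) and heart against lung (2.78, adjusted p = 0.205, 6.4% of all genes) did not pass. In order of group means, lung controls were highest and their libraries did not overlap those of heart controls, the next group. From heart controls through knockout-labelled heart, knockout-labelled liver, knockout-labelled lung and liver controls, each neighbour overlapped the next.

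Aplnr, the apelin receptor gene, passed the test in all 3 tissues, upward in liver and downward in lung and heart. Liver had 25.8, 7.71 and 8.36 CPM in the knockout-labelled libraries and 2.98, 0.919 and 1.88 CPM in the controls. All knockout-labelled libraries lay above all controls, with library 1 the highest, and Aplnr rose (log2 2.83, SE 0.513, edgeR adjusted p = 0.0015). Even so, knockout-labelled liver stayed below control lung and control heart in every library. Lung had 86.6, 82.7 and 32.5 CPM in the knockout-labelled libraries and 256, 221 and 240.2 CPM in the controls, with no overlap, and Aplnr fell (log2 −1.83, SE 0.454, adjusted p = 0.023). Knockout-labelled heart had 71.0 and 80.8 CPM, against 305 and 287 CPM in heart controls. These groups did not overlap either, and Aplnr fell (log2 −1.96, SE 0.558, adjusted p = 0.0249). The lung call ended without knockout-labelled library 3 or any 1 control (adjusted p up to 0.0773), and the heart call ended without any 1 heart library (adjusted p = 0.0765 to 0.148).

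The direction of the Aplnr change differed between organs. The change in lung lay 4.66 below that in liver on the log2 scale (difference −4.66, SE 0.685, edgeR adjusted p = 0.00129), and the change in heart lay 4.79 below it (difference −4.79, SE 0.764, adjusted p = 0.0021). Heart and lung differed by −0.13 (95% interval −1.63 to 1.36, adjusted p = 0.957). The order of group means was heart controls, lung controls, knockout-labelled heart, knockout-labelled lung, knockout-labelled liver and liver controls, and only knockout-labelled heart and knockout-labelled lung overlapped as neighbours. Among knockout-labelled libraries, where 40.6% of all genes differed between lung and liver and 37.3% between heart and liver, Aplnr remained higher in lung (log2 2.27, adjusted p = 0.00144) and heart (log2 2.44, adjusted p = 0.00161) than in liver.

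Adm, the adrenomedullin gene, was higher in knockout-labelled libraries of every tissue, and its changes had the smallest standard errors of the 5. Liver had 102, 117 and 96.7 CPM in the knockout-labelled libraries and 45.3, 49.5 and 58.7 CPM in the controls. The groups did not overlap, and Adm rose (log2 1.04, SE 0.212, edgeR adjusted p = 0.00339). Lung had 15.7, 13.8 and 19.3 CPM in the knockout-labelled libraries and 9.96, 4.52 and 7.19 CPM in the controls, again with no overlap, and Adm rose (log2 1.17, SE 0.219, adjusted p = 0.0049). Knockout-labelled heart had 52.6 and 54.6 CPM, against 32.4 and 33.6 CPM in heart controls. These did not overlap, but the difference did not pass (log2 0.70, SE 0.259, adjusted p = 0.0747). DESeq2, limma voom and a fit of heart alone gave 0.71 to 0.72 with adjusted p of 0.0151 to 0.0455. Averaged over the 3 tissues the change was 0.97 (SE 0.134, adjusted p = 0.00011), where 29.3% of all genes passed. The change did not differ detectably between tissues, with differences of 0.13 for lung minus liver (95% interval −0.52 to 0.77), −0.34 for heart minus liver (−1.05 to 0.38) and −0.46 for heart minus lung (−1.19 to 0.26). Group means ran from knockout-labelled liver through knockout-labelled heart, liver controls, heart controls and knockout-labelled lung to lung controls, and only knockout-labelled heart and liver controls overlapped as neighbours.

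Mesenchymal marker lists differed in liver mainly through 1 gene each. The pericyte and smooth muscle list (11 genes) summed to 415 to 965 CPM in the knockout-labelled libraries and 158 to 209.8 CPM in the controls, with 1 gene passing, Abcc9 (598, 394 and 798 CPM in the knockout-labelled libraries, against 144, 134 and 120.2 CPM in the controls). Without Abcc9 the sums overlapped, at 21.7 to 167 CPM in the knockout-labelled libraries and 29.8 to 65.4 CPM in the controls. The fibroblast and stellate list (8 genes) summed to 572 to 876 CPM in the knockout-labelled libraries and 122 to 159 CPM in the controls, with Pdgfra and Hgf higher and Lum lower. Without Hgf these sums overlapped too, at 19.3 to 94.3 CPM in the knockout-labelled libraries and 28.8 to 43.3 CPM in the controls. Of all genes, 19.4% passed in liver. No marker of either list was at 0 in these groups. In knockout-labelled heart the pericyte and smooth muscle list summed to 755 to 972 CPM, against 1095 to 1183 CPM in controls. The fibroblast and stellate list summed to 1025 to 1251 CPM there, against 630 to 771 CPM in heart controls. DESeq2 called 2 genes of the first and 1 of the second higher in heart, and 0 lower. In knockout-labelled lung the first summed to 145 to 286 CPM, against 121 to 134 CPM in controls. The part of both lists in the liver changes of Apln, Aplnr and Adm, and in other tissues, was not tested.

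Cxcr4, the chemokine receptor gene, was lower in knockout-labelled lung. Lung had 5.85, 6.81 and 5.70 CPM in the knockout-labelled libraries and 19.1, 20.1 and 31.2 CPM in the controls. The groups did not overlap, and Cxcr4 fell (log2 −1.94, SE 0.394, edgeR adjusted p = 0.00791). Without the male libraries of all groups this call ended (log2 −2.07, adjusted p = 0.082), as did the lung and heart calls of Aplnr (adjusted p = 0.101 and 0.0977) and the lung call of Apln (adjusted p = 0.218). Liver had 6.54, 7.66 and 22.9 CPM in the knockout-labelled libraries and 6.69, 7.73 and 4.83 CPM in the controls. Library 3 alone stood above the controls, and the difference did not pass (log2 0.94, 95% interval 0.11 to 1.78, adjusted p = 0.108). Heart had 33.8 and 27.4 CPM in the knockout-labelled libraries and 28.1 and 39.0 CPM in the controls, which overlapped (log2 −0.13, 95% interval −1.12 to 0.85, adjusted p = 0.884). Without liver knockout-labelled library 3 the liver value was 0.15, and without library 1 it passed (1.25, adjusted p = 0.0343). The change in lung lay below that in liver (difference −2.88, SE 0.551, adjusted p = 0.00684), a call that also ended without the male libraries (−3.38, adjusted p = 0.0591). Heart minus lung was 1.81 (adjusted p = 0.0953, and 0.0307 by voom with libraries paired across tissues) and heart minus liver was −1.08 (adjusted p = 0.303). In order of means, heart controls, knockout-labelled heart, lung controls, knockout-labelled liver, liver controls and knockout-labelled lung each overlapped the next.

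Leukocytes also express Cxcr4. Of 14 leukocyte markers tested, 1 was lower in knockout-labelled lung, Lyz2 (91.6, 164 and 44.9 CPM in the knockout-labelled libraries, against 432, 534 and 452 CPM in the controls), which alveolar epithelium expresses too. Of all genes, 4.11% were lower there. Summed, the 15-gene leukocyte list ran from 120 to 256 CPM in knockout-labelled lung and from 514 to 585 CPM in lung controls. Without Lyz2 the other 13 tested markers summed to 60.8 to 92.6 CPM in knockout-labelled lung and 51.3 to 82.4 CPM in lung controls, and overlapped. DESeq2 called 2 markers higher and 1 lower in lung. Ptprc, the CD45 gene, had 3.69, 7.86 and 4.23 CPM in the knockout-labelled libraries and 10.1, 4.85 and 6.61 CPM in the controls, and overlapped. In heart, where Cxcr4 did not pass, the list summed to 201 to 326 CPM in knockout-labelled libraries and 30.5 to 60.9 CPM in controls. There 8 of 14 genes were higher, against 10.2% of all genes. The part of leukocyte RNA in the Cxcr4 values was not tested.

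Esm1, the endocan gene, passed in no tissue. Liver had 128, 66.5 and 467 CPM in the knockout-labelled libraries and 209, 93.6 and 174 CPM in the controls. Library 3 was the highest of all 16 and library 2 the lowest of the 6 (log2 0.47, 95% interval −0.77 to 1.71, edgeR adjusted p = 0.617), and without library 3 the value was −0.71. Lung had 51.5, 13.1 and 37.9 CPM in the knockout-labelled libraries and 63.7, 64.2 and 75.6 CPM in the controls. All knockout-labelled lung libraries lay below the controls, but the difference did not pass (log2 −0.99, 95% interval −2.24 to 0.27, adjusted p = 0.349). Heart had 25.6 and 23.2 CPM in the knockout-labelled libraries and 21.8 and 16.2 CPM in the controls, without overlap (log2 0.36, 95% interval −1.18 to 1.90, adjusted p = 0.777). In order of means, knockout-labelled liver and liver controls overlapped, as did knockout-labelled lung and knockout-labelled heart, while lung controls overlapped neither neighbour and heart controls lay lowest.

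**Figure D2:**
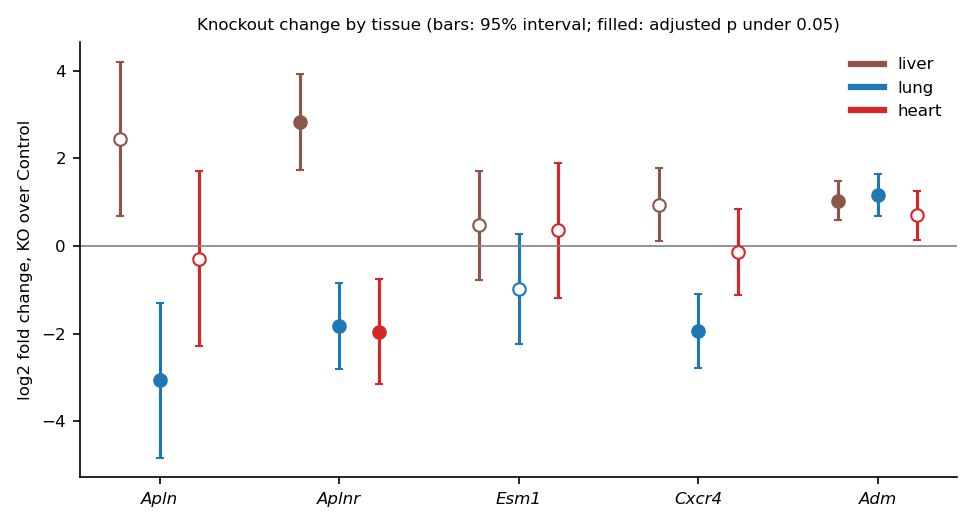
Knockout change of each gene in liver, lung and heart as log2 fold change, knockout-labelled over control, with bars for the 95% interval and filled points for an adjusted p under 0.05. Aplnr is filled above 0 in liver (2.83) and below 0 in lung (−1.83) and heart (−1.96), while Adm lies above 0 in every tissue.

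The apelin system outside Apln and Aplnr changed at its proteases. Furin, a protease that can cleave the apelin precursor, was higher in knockout-labelled liver (log2 0.96, adjusted p = 9.17e-05) and heart (log2 0.95, adjusted p = 0.000763), and had log2 0.37 in lung (adjusted p = 0.0728). Mme, which encodes neprilysin, a peptidase that degrades apelin, had 2.48, 1.60 and 2.26 CPM in knockout-labelled lung against 12.7, 14.2 and 10.6 CPM in lung controls. It fell there (log2 −2.56, adjusted p = 0.00358) and in liver (log2 −2.31, adjusted p = 0.00427), and its heart value of −0.71 did not pass (adjusted p = 0.405). Apela, the second ligand of APJ, had 0 counts in all 16 libraries, which allows up to 0.0993 CPM in the shallowest of them at 3 counts, for counting error only.

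Calcrl and Ramp2, genes of the adrenomedullin receptor, were lower in liver and lung, where Adm was higher. Calcrl encodes the receptor itself, and RAMP2 and RAMP3 are the partners that make it bind adrenomedullin. Calcrl had 2311, 2233 and 1811 CPM in knockout-labelled lung against 3403, 3330 and 3892 CPM in lung controls, with no overlap, and fell (log2 −0.74, edgeR adjusted p = 0.00835). Calcrl fell in liver too (log2 −0.67, adjusted p = 0.00658), while its heart value of −0.49 did not pass (adjusted p = 0.0847). Ramp2 fell in liver (log2 −1.40, adjusted p = 0.000744), lung (log2 −0.99, adjusted p = 0.0157) and heart (log2 −1.28, adjusted p = 0.0065). Ramp3 fell in liver, with 3.74, 0.580 and 3.86 CPM in knockout-labelled libraries against 10.5, 20.9 and 11.6 CPM in controls (log2 −2.40, adjusted p = 0.0022), and passed in neither lung nor heart. Pam, the enzyme that amidates adrenomedullin, rose in heart (log2 0.94, adjusted p = 0.000552). Ramp1, whose product pairs with the same receptor to bind CGRP, passed nowhere, and Adm2, a related peptide gene, was too low to test. Of the 6 partners tested, Ackr3 included, 3 were lower and 1 higher in liver, 2 lower in lung, and 1 lower and 1 higher in heart. Over all genes, 9.87% were lower and 9.54% higher in liver, 4.11% lower in lung, and 9.09% lower and 10.2% higher in heart.

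Around CXCR4, Cxcl12, the gene of its ligand, was lower in heart, and Dpp4 was lower in all 3 tissues. Cxcl12 had 614 and 923 CPM in knockout-labelled heart against 3295 and 3496 CPM in heart controls, and fell (log2 −2.14, edgeR adjusted p = 0.0348). In lung it had 316, 385 and 92.5 CPM in knockout-labelled libraries against 995, 712 and 991 CPM in controls, which did not overlap but did not pass (log2 −1.77, adjusted p = 0.0547). Liver had 6.06, 3.10 and 13.4 CPM in knockout-labelled libraries against 13.7, 6.60 and 17.1 CPM in controls, which overlapped (log2 −0.73, adjusted p = 0.374). Dpp4, which encodes a protease that inactivates CXCL12, fell in liver (log2 −1.68, adjusted p = 0.00552), lung (log2 −1.42, adjusted p = 0.0286) and heart (log2 −2.13, adjusted p = 0.00892). Ackr3, a scavenging receptor for CXCL12 and adrenomedullin, rose in liver (log2 1.24, adjusted p = 0.00119), and its heart value of −0.63 did not pass (adjusted p = 0.108). Its change in heart lay below that in liver (difference −1.87, adjusted p = 0.00451).

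**Figure D3:**
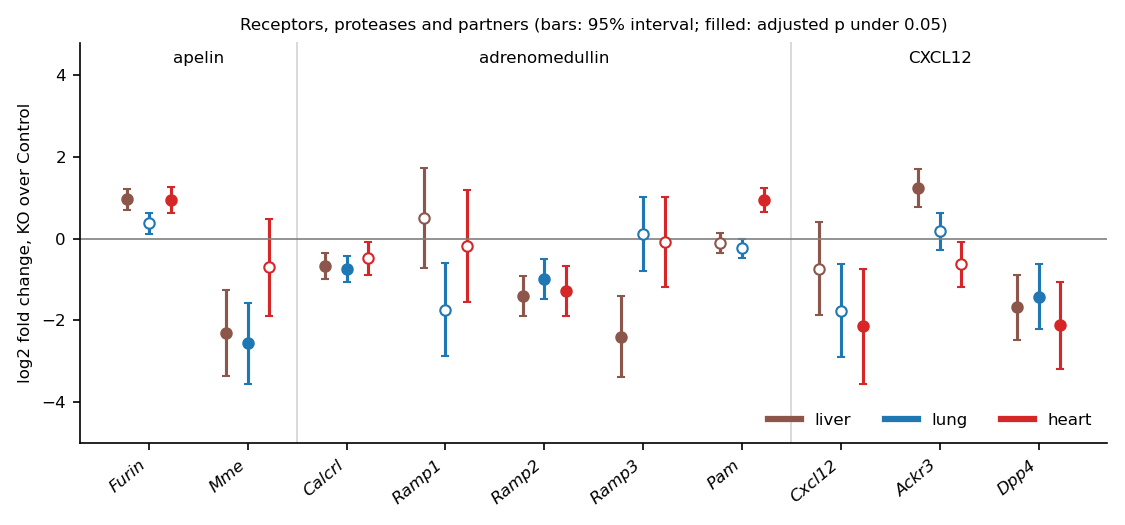
Knockout change of the partner genes as log2 fold change, knockout-labelled over control, in liver, lung and heart, with 95% intervals and filled points for an adjusted p under 0.05. Ramp2 and Dpp4 are filled below 0 in all 3 tissues, and Ramp3 is filled in liver alone at −2.40.

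Other tip cell genes split in both directions. Of 30 tested besides the 5, 8 were higher and 6 lower in knockout-labelled liver (median log2 0.13, against 0.02 over all genes). In lung 7 were higher and 2 lower (median 0.40, against −0.02), and in heart 5 were higher and 5 lower (median 0.12, against 0.01). Over all genes, 9.54% were higher and 9.87% lower in liver, 4.35% and 4.11% in lung, and 10.2% and 9.09% in heart. Mmp14, a membrane-bound matrix protease, and Nid1, a basement membrane protein gene, rose in all 3 tissues, and Dll4, the Notch ligand of tip cells, fell in all 3. Mmp14 in heart had 312 and 244 CPM in the knockout-labelled libraries against 31.2 and 29.2 CPM in the controls (log2 3.20, edgeR adjusted p = 1.17e-06). Dll4 in lung had 167, 96.7 and 128 CPM in the knockout-labelled libraries against 282, 364 and 387 CPM in the controls (log2 −1.40, adjusted p = 0.00264).

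The gene of this list with the smallest adjusted p was Ednrb in liver, Angpt2 in lung and Mmp14 in heart. Ednrb, an endothelin receptor gene, had 641, 647 and 722 CPM in knockout-labelled liver against 21.8, 11 and 28.0 CPM in liver controls, and rose (log2 5.05, edgeR adjusted p = 8.81e-06). Its change in lung was lower by 4.35 (difference −4.35, adjusted p = 0.000796). Angpt2, which encodes a ligand that antagonises TIE2 in sprouting vessels, had 349, 328 and 934 CPM in knockout-labelled lung against 43.7, 44.4 and 39.9 CPM in lung controls. It rose there (log2 3.65, adjusted p = 6.4e-05), more than in liver (difference 3.31, adjusted p = 0.00093). Kdr, the main VEGF receptor gene, fell in heart (log2 −1.46, adjusted p = 0.00183), as did the netrin receptor gene Unc5b (log2 −1.07, adjusted p = 0.0135), which was higher in lung. Trp53i11 rose in liver (log2 1.76, adjusted p = 0.00111), and Lxn fell in liver (log2 −0.87, adjusted p = 0.00188) and lung (log2 −1.12, adjusted p = 0.000984).

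**Figure D4:**
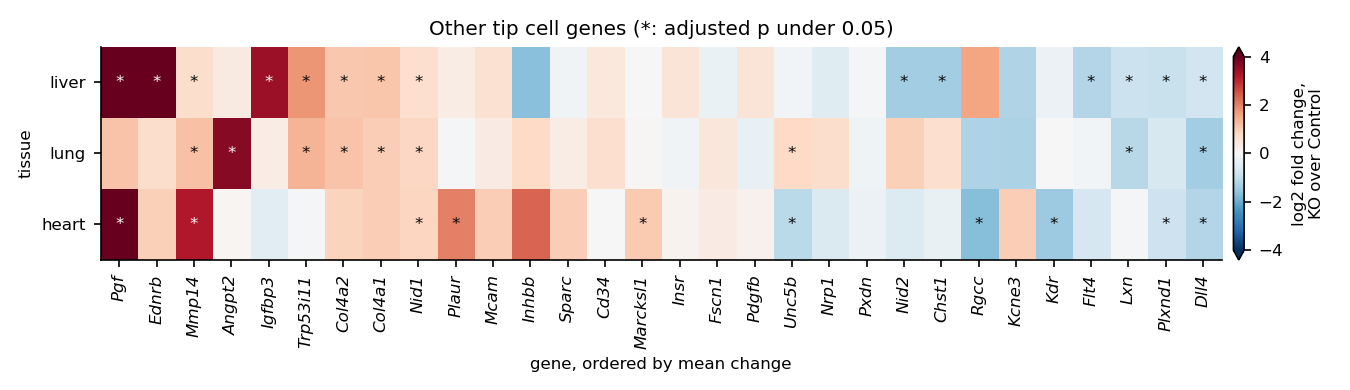
Knockout change of the other 30 tip cell genes, one column per gene and one row per tissue, coloured by log2 fold change (knockout-labelled over control) with asterisks for an adjusted p under 0.05. Mmp14 and Nid1 are marked higher and Dll4 lower in every row, while Ednrb is marked in liver and Angpt2 in lung.

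Stalk cell and Notch genes were lower where they changed, with 1 exception. Of 11, 4 were lower and 1 higher in liver, 3 lower in lung and 5 lower in heart (medians −0.56, −0.50 and −0.58). The shares of all genes called lower were 9.87% in liver, 4.11% in lung and 9.09% in heart, and 9.54% were higher in liver. Robo4, a guidance receptor that stabilises endothelium, fell in liver (log2 −1.29, edgeR adjusted p = 0.00293), lung (log2 −1.07, adjusted p = 0.0188) and heart (log2 −2.34, adjusted p = 0.000366). Robo4 and Flt1 of this list, and Kdr of the tip cell list, are also among the 12 pan-endothelial markers. The sum of those markers was lower in knockout-labelled libraries of each tissue.

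Genes of the hypoxia response and glycolysis, a response in which Adm is also known to take part, were higher in liver and heart. Of 25 tested, 14 were higher and 1 lower in liver (median log2 0.68), 4 higher and 1 lower in lung (median 0.05) and 15 higher and 1 lower in heart (median 1.08). The shares of all genes called higher were 9.54% in liver, 4.35% in lung and 10.2% in heart. Those called lower were 9.87%, 4.11% and 9.09%. Egln3, an oxygen-sensing prolyl hydroxylase gene, had 37.7, 20.3 and 69.7 CPM in knockout-labelled liver against 1.40, 1.43 and 2.01 CPM in liver controls. It rose in liver (log2 4.72, edgeR adjusted p = 2.3e-05), lung (log2 2.68, adjusted p = 0.00725) and heart (log2 4.96, adjusted p = 0.000153).

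Lung capillaries were checked by the markers of their known types, since apelin marks aerocytes and its receptor marks general capillary cells. None of 7 aerocyte markers passed in lung by edgeR, where 8.46% of all genes passed (0 at an unadjusted p under 0.05 and 0 by DESeq2, median log2 0.11). Of 8 general capillary markers 3 were lower in lung (median −1.46), against 4.11% of all genes. These were Tek (log2 −1.81, adjusted p = 0.000171), Glp1r (log2 −1.69, adjusted p = 0.00479) and Cd93 (log2 −1.53, adjusted p = 0.00595). At an unadjusted p under 0.05 the count was 7, and DESeq2 called 5 lower. Their summed level was lower without overlap in all 3 tissues, at 6281 to 8625 CPM in knockout-labelled lung against 12440 to 14130 CPM in lung controls, 5385 to 7623 CPM in knockout-labelled liver against 9567 to 9902 CPM in liver controls, and 3920 to 4467 CPM in knockout-labelled heart against 8387 to 8563 CPM in heart controls. Single markers went both ways outside lung: DESeq2 called 6 lower and 1 higher in liver, and 3 lower and 2 higher in heart. Plvap had higher means in knockout-labelled liver (2710 against 637 CPM in controls) and heart (257 against 55.9 CPM), and Kit in heart (237 against 56.1 CPM). Tek is also 1 of the 12 pan-endothelial markers. The part of capillary type in the lung values of Apln and Aplnr was not tested.

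The genes nearest to each of the 5 in pattern were found by the root mean square difference of centred log2 CPM over the 16 libraries, among 12827 genes with a mean of at least 1 CPM. For Adm these were Sfxn1 (0.329), Sat2 (0.435) and Tmem173 (0.437), and for Cxcr4 they were Cited2 (0.532), Arhgef25 (0.541) and Fzd7 (0.562). For Esm1 they were Spats2 (0.722), Hoxb3 (0.739) and Lrrc32 (0.745). Aplnr was nearest to Il17d (0.953), Ehd2 (0.986) and Arhgap28 (1.03). Apln had no gene closer than Pcdhga11 (1.0), whose exons are shared within the protocadherin cluster so that its counts are uncertain, followed by Zfp365 (1.15) and Rnf150 (1.21).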

How the data were processed

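The values used are raw gene counts deposited by the authors in 1 table of 16 libraries. Per the submitters' processing notes, FastQC 0.11.5, STAR 2.7.6a and GRCm38 were used. Libraries were made with TruSeq RNA v2 or TruSeq Stranded mRNA kits, per the labels' protocols, which do not say which kit served which library, and no source used here gives the counting program, its strand setting or its annotation. Symbols, exon lengths and coordinates came from GENCODE M21, and promoters from RefSeq.

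Low genes were removed with filterByExpr by group (at least 10 counts, and 15 in total), leaving 19646. All libraries entered 1 edgeR 4.0.16 quasi-likelihood fit with TMM factors (0.916 to 1.07) and a mean per group. The p-values were adjusted by Benjamini-Hochberg over all genes, with a threshold of 0.05, and 95% intervals came from the fit's degrees of freedom. R 4.3.3, limma 3.58.1 and DESeq2 1.42.0 were also used, the last 2 for alternatives. The fit was also run on simulated counts drawn independently for each library. That run cannot show how the calls fare with outlying libraries or libraries that deviate together.

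The 5 genes and the lists were chosen with earlier results of these data known. Named genes were the 5, fixed partners of them (1 is not reported here), up to 4 list genes per tissue with the smallest adjusted p, and the 3 nearest in pattern. Nid1, Dll4, Igfbp3, Pgf, Vegfa, marker genes beside a result and members of short lists were named outside that rule, after their values were seen.

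Same-numbered libraries of a genotype deviated together across tissues (r of 0.107 to 0.400 in every pair), so these numbers, taken from the descriptions, were used as a block in an alternative fit for comparisons between tissues, chosen after seeing the data. Same-numbered knockout-labelled and control libraries of a tissue had r of −0.103 to 0.448, and nothing in the labels states that they are pairs. The highest value was that of the liver libraries numbered 2, which were both male. Alternatives changed the normalization, the filter, the tool, the block and the libraries used.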

Additional observations from a re-analysis of the deposited data

Results flagged for a closer look

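The knockout change of 3 of the 5 genes differed between tissues by a test of the difference itself (edgeR interaction contrast, adjusted over all genes). In lung minus liver, the difference was −5.51 for Apln (SE 1.16, adjusted p = 0.012), −4.66 for Aplnr (SE 0.685, adjusted p = 0.00129) and −2.88 for Cxcr4 (SE 0.551, adjusted p = 0.00684) on the log2 scale. Without the male libraries the calls of Apln (−5.48, adjusted p = 0.144) and Cxcr4 (−3.38, adjusted p = 0.0591) ended. Apln was below every lung control in 3 of 3 knockout-labelled lung libraries and above every liver control in 2 of 3 knockout-labelled liver libraries. In heart minus liver, Aplnr differed by −4.79 (SE 0.764, adjusted p = 0.0021), higher than controls in 3 of 3 liver libraries and lower in 2 of 2 heart libraries.

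Partners and list genes differed between tissues as well. In lung minus liver the differences were 2.51 for Ramp3 (adjusted p = 0.0273), −4.35 for Ednrb (adjusted p = 0.000796) and 3.31 for Angpt2 (adjusted p = 0.00093). In heart minus liver they were 1.05 for Pam (adjusted p = 0.00296), −1.87 for Ackr3 (adjusted p = 0.00451), −4.09 for Ednrb (adjusted p = 0.00226) and −1.80 for Trp53i11 (adjusted p = 0.0319). The same comparison gave 2.49 for Mmp14 (adjusted p = 4.42e-05), −1.23 for Kdr (adjusted p = 0.035) and 3.07 for Glp1r (adjusted p = 0.0312). In heart minus lung they were 1.18 for Pam (adjusted p = 0.00223), 1.04 for Lxn (adjusted p = 0.0299), 2.03 for Mmp14 (adjusted p = 0.000387) and −3.57 for Angpt2 (adjusted p = 0.0019). Kdr (−1.43, adjusted p = 0.0223) and Unc5b (−1.85, adjusted p = 0.0075) also differed between heart and lung.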

How the results depend on the processing

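Over the 5 genes and 3 tissues, 181 of 215 alternative values of the knockout change kept their direction and their side of the threshold, 18 lost the call, 10 gained one and 6 changed sign. Leaving out the male libraries, which removes samples, ended the lung calls of Apln (−2.96, adjusted p = 0.218), Aplnr (−2.0, adjusted p = 0.101) and Cxcr4 (−2.07, adjusted p = 0.082) and the heart call of Aplnr (−2.06, adjusted p = 0.0977), as well as the lung minus liver calls of Apln (−5.48) and Cxcr4 (−3.38), and gave 0.010 for Cxcr4 in heart. It left 2226 genes called in liver (3814 with all libraries), 513 in lung (1662) and 2450 in heart (3786). For differences between tissues it left 429 in lung minus liver (1219), 516 in heart minus liver (1635) and 570 in heart minus lung (1257), with 4834 between knockout-labelled heart and liver (7326) and 3927 between knockout-labelled heart and lung (6102). DESeq2 called 2514 genes in lung, 2072 in lung minus liver, 2673 in heart minus liver and 2154 in heart minus lung. The liver rise of Apln passed with upper quartile factors (2.44), no filter (2.405) and DESeq2 (2.43), and the heart rise of Adm in a separate fit (0.7053), by DESeq2 (0.7058) and by voom (0.72), where the cause was not tested. The replicate block pairs knockout-labelled with control libraries that share a number in the labels (r of −0.103 to 0.448): it moved the calls to 3888 in liver, 1814 in lung and 3976 in heart by title numbers, and by description numbers changed the sign of Cxcr4 in heart (0.12), which was not called. Values of Esm1 near 0 changed sign: the mean over tissues was 0.018 with the block by description numbers and 0.15 without males, and heart minus liver was 0.18 with the title block, 0.71 with the description block, 1.01 with the genotype and number block and 0.45 by voom. The genotype and number block also gave −0.062 for Aplnr and 0.18 for Esm1 in knockout-labelled heart against lung, and ended no call of the 5 genes between tissues, while adding those of Esm1 given above. Leaving out 1 library at a time gave, in liver, 0.54 to 3.11 for Apln, −0.71 to 0.91 for Esm1 and 0.15 to 1.25 for Cxcr4. In lung it gave −3.22 to −2.86 for Apln and −2.05 to −1.50 for Aplnr, and in heart −0.66 to 0.22 for Apln, −2.06 to −1.85 for Aplnr and −0.34 to 0.12 for Cxcr4. It gave 917 to 1479 calls in lung, 1793 to 2944 in heart, 807 to 1269 in lung minus liver, 711 to 1777 in heart minus liver and 467 to 1405 in heart minus lung. Between tissues it gave 3467 to 4790 calls for control heart against lung, 4731 to 7427 for knockout-labelled heart against liver and 3467 to 5445 for knockout-labelled heart against lung. Uncalled differences that changed sign ran from −0.44 to 0.093 for the mean of Esm1, −0.13 to 0.43 for Adm in lung minus liver, −0.55 to 1.07 for Esm1 in heart minus liver and −0.47 to 0.10 for Aplnr in heart minus lung. Knockout-labelled lung against liver ran from −1.89 to 0.56 for Apln, and knockout-labelled heart against lung from −0.16 to 0.40 for Aplnr. Where a heart library was left out, the lone sample of its group is assumed to vary like the other groups. With 2 libraries a group in heart, a missed call there does not show that levels were alike.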

Other observations

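The third knockout-labelled liver library stood apart from the other two in genes that were picked after their values were seen. It had 467 CPM of Esm1 and 22.9 CPM of Cxcr4, the highest of the liver libraries, and 2.43 CPM of Apln, the lowest. Igfbp3, an insulin-like growth factor binding protein gene, had 114 CPM there and 3.09 and 3.36 CPM in the other knockout-labelled liver libraries, against 1.02 to 5.22 CPM in liver controls. Pgf, a VEGF family ligand gene, had 9.54 CPM there and 0.355 and 0.116 CPM in the others, against 0.0304 to 0.316 CPM in controls. The rise of both genes in liver (edgeR log2 3.42, adjusted p = 0.0406 for Igfbp3, and log2 4.36, adjusted p = 0.0353 for Pgf) thus had 1 library far above the rest. Sema3g, an arterial gene, had 175.6 CPM in the third library and 2.32 and 1.885 CPM in the others, against 0.749 to 9.883 CPM in controls. Markers of other cells were uneven too. The pericyte and smooth muscle list without Abcc9 summed to 21.7 to 167 CPM over the knockout-labelled liver libraries, against 29.8 to 65.4 CPM in controls. The part of other cells in these values was not tested. In heart, Pgf had 373 and 211 CPM in the knockout-labelled libraries against 18.3 and 14.9 CPM in the controls (log2 4.14, adjusted p = 0.0236), and Vegfa had 387 and 233 CPM against 74.5 and 72.7 CPM (log2 2.08, adjusted p = 0.0219).

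Beside the list counts that follow, edgeR called 9.54% of all genes higher and 9.87% lower in liver. These shares were 4.35% and 4.11% in lung, and 10.2% and 9.09% in heart. Of 10 arterial genes, 3 were lower and 1 higher in liver, 2 lower in lung, and 3 lower and 1 higher in heart, with Gja5 and Dll4 lower in all 3 tissues. Of 8 venous genes, 3 were lower in liver, 1 was higher and 1 lower in lung, and 3 were higher in heart. Of 20 proliferation genes, none passed in liver or lung by edgeR and 3 were higher in heart (Ccnb1, Mcm2 and Tyms). At an unadjusted p under 0.05 the counts were 1 in liver, 0 in lung and 8 in heart, and DESeq2 called 1, 0 and 8. Platelet markers (6 genes) summed to 178 to 260 CPM in knockout-labelled liver against 34.9 to 46.9 CPM in liver controls, 60.4 to 91.0 CPM in knockout-labelled lung against 26.0 to 27.2 CPM in lung controls, and 57.1 to 60.7 CPM in knockout-labelled heart against 14.1 to 16.5 CPM in heart controls. In liver and heart these sums rested mostly on Itga2b and Pf4. Mean Itga2b was 153.8 CPM in knockout-labelled liver (27.75 CPM in controls) and 27.18 CPM in knockout-labelled heart (7.245 CPM in controls). Mean Pf4 was 50.84 CPM in knockout-labelled liver, against 3.742 CPM in controls. Mean Gp1ba was lower in knockout-labelled liver (3.784 against 5.985 CPM) and heart (1.118 against 1.815 CPM). DESeq2 called 2 higher and 1 lower in liver, 4 higher in lung and 2 higher in heart.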
